A study of Mus musculus with 27 samples.

Results

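DNA methylation was examined at 10 genes of the circadian clock in C2C12 cells: the activators Arntl (also called Bmal1), Clock and Npas2, the nuclear receptors Nr1d1, Nr1d2 and Rora, the output factors Dbp and Tef, and the repressors Bhlhe40 and Bhlhe41. The genes were chosen by function, with earlier results of these data known. C2C12 is an established line of mouse myoblasts, which form multinucleated muscle fibres in low serum. According to the labels, myoblasts grown with 10% fetal bovine serum were differentiated in 2% horse serum and then shocked with 50% horse serum for 2 h, a standard way to synchronise cellular clocks in culture. Libraries of reduced representation bisulfite sequencing (RRBS), which reads CpG-rich restriction fragments, sampled the cells between 12 h and 60 h after the shock in steps of 6 h, with 3 replicates at each of the 9 time points and 27 libraries in all. All 27 libraries therefore share the line, the differentiation and the shock, and no library of unshocked cells was analysed here. The labels do not say whether replicates were separate cultures, so the p-values measure the spread between these libraries, which may be technical.

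The clock of mammalian cells is a transcriptional loop. CLOCK, or its relative NPAS2, pairs with ARNTL and binds E-box sequences to activate the period and cryptochrome genes, whose proteins repress the pair. In a second loop the ROR receptors activate Arntl and the NR1D1 and NR1D2 receptors repress it through shared response elements. DBP and TEF are basic leucine zipper factors that pass the rhythm on through D-box sequences, and BHLHE40 and BHLHE41 compete for E-boxes as repressors. In muscle this loop is known to drive daily changes in the RNA of metabolic and contractile genes. Methylation of CpGs at a promoter is commonly low when the promoter is active.

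A run is a stretch of positions measured in all 27 libraries, with gaps of at most 200 bp between neighbours and at least 3 positions. Its level is the mean methylation over its positions, in percent. The search covered 5 kb before each gene's start to 1 kb past its end and found 25 runs of the 10 genes, of 18447 runs in the whole table. Of these runs, 17 lay at a start (from 1000 bp before to 500 bp after an annotated start), 4 lay further upstream and 4 in the gene body. None lay within 1000 bp of a gene's end, so no level is given for the ends of these genes. Within each gene, runs are numbered in the direction of transcription. Positive distances are downstream of an annotated start and negative ones upstream. Neighbouring positions share information in this table, so the number of positions in a run overstates the number of separate measurements.

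The positions that were measured can be shown on the promoter sequences themselves. The 6 stretches below, from RefSeq's GRCm38.p6 (mm10) and written 5′ to 3′ in the direction of the gene, end just before an annotated start. For Nr1d1, Nr1d2, Tef, Dbp and Bhlhe41 this is the gene's outermost start. Capitals mark the bases whose methylation was measured in all 27 libraries.
Arntl, chr7:113207215-113207464, plus strand: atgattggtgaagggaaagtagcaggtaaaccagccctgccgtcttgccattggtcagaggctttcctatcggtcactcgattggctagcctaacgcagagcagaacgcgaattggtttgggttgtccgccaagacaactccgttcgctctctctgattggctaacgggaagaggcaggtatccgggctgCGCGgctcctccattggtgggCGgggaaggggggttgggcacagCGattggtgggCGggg
Nr1d1, chr11:98775378-98775627, minus strand: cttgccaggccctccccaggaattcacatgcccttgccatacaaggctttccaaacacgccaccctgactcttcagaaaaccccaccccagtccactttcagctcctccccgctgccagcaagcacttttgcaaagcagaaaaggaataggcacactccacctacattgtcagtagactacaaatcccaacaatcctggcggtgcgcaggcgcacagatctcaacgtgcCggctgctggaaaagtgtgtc
Nr1d2, chr14:18239107-18239356, minus strand: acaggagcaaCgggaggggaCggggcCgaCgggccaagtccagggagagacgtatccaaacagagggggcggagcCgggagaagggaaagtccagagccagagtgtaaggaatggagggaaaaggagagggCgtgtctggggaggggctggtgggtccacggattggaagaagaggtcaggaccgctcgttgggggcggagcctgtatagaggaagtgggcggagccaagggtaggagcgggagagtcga
Dbp, chr7:45704997-45705099, plus strand: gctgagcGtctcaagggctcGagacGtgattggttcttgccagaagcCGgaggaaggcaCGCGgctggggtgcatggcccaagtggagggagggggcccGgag
Tef, chr15:81802423-81802672, plus strand: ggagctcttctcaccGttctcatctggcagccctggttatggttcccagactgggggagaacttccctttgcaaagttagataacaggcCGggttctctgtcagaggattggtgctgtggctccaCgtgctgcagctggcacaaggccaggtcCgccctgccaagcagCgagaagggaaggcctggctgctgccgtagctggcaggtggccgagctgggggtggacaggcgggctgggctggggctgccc
Bhlhe41, chr6:145865421-145865670, minus strand: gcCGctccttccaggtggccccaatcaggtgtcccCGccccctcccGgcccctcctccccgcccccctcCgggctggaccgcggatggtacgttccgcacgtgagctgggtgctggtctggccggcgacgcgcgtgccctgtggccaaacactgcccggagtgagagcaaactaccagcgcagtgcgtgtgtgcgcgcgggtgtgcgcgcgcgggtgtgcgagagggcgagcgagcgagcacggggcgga
Coverage differed widely between these promoters. In Arntl 5 of the 16 CpGs in the 250 bases carried a value, in Nr1d1 1 of 7, in Nr1d2 6 of 15, in Tef 5 of 8 and in Bhlhe41 4 of 31. In the 103 bases of Dbp all 7 CpGs did. The measured bases had a mean level of 5.13% in Arntl, 1.85% in Nr1d1, 2.84% in Nr1d2, 1.82% in Dbp, 5.03% in Tef and 2.22% in Bhlhe41.

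Letters known from clock factors were searched for in the 13 promoters of these genes that the RefSeq promoter table holds (9 genes, each promoter 250 bases before to 50 after a start, both strands). Bhlhe40 is not among them. The E-box CACGTG was present in 3 of the 13 promoters and in 7.15% of all 32851 mouse promoters of that length. Those 3 were both promoters of Tef and that of Bhlhe41. Promoters of the same gene are not independent, and those of Arntl overlap. The related AACGTG was present in 1 of the 13, against 4.68% of all promoters, and the nuclear receptor element AGGTCA in 3, against 16.3%. None of the 13 held the D-box TTATGTAA, its CpG form TTACGTAA or the cyclic AMP element TGACGTCA, which occur in 0.938%, 0.119% and 1.79% of all promoters. The contexts of 4 matches are shown, because the E-box forms contain a CpG that can itself be methylated and a measured run spans the AGGTCA of Nr1d2. That element, 72 to 77 bp before the start, holds no CpG and fell in a gap between measured positions. Capitals here mark the motif.
Tef E-box, chr15:81802534-81802563: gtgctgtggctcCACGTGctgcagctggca
Bhlhe41 E-box, chr6:145865556-145865585: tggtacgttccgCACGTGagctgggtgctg
Nr1d1 AACGTG, chr11:98775388-98775417: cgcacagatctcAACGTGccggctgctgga
Nr1d2 AGGTCA, chr14:18239166-18239195: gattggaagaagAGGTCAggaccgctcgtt
Of the CpG-bearing motifs in these promoters, 1 was measured: the Tef E-box 122 to 127 bp before the start. Its single measured base had a level of 3.86% ± 3.08 (SD, n = 27 libraries), with a lowest, median and highest value of 0, 3.67% and 14.1%. The whole run around it had a mean of 5.03%. Since neighbouring positions share information here, the value at that base may not be its own alone. Its fitted 24 h amplitude was 1.11 points (adjusted p = 0.953 by limma over all positions). A match of letters is no evidence of binding, and the unmeasured motifs carry no value here.

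**Figure D1:**
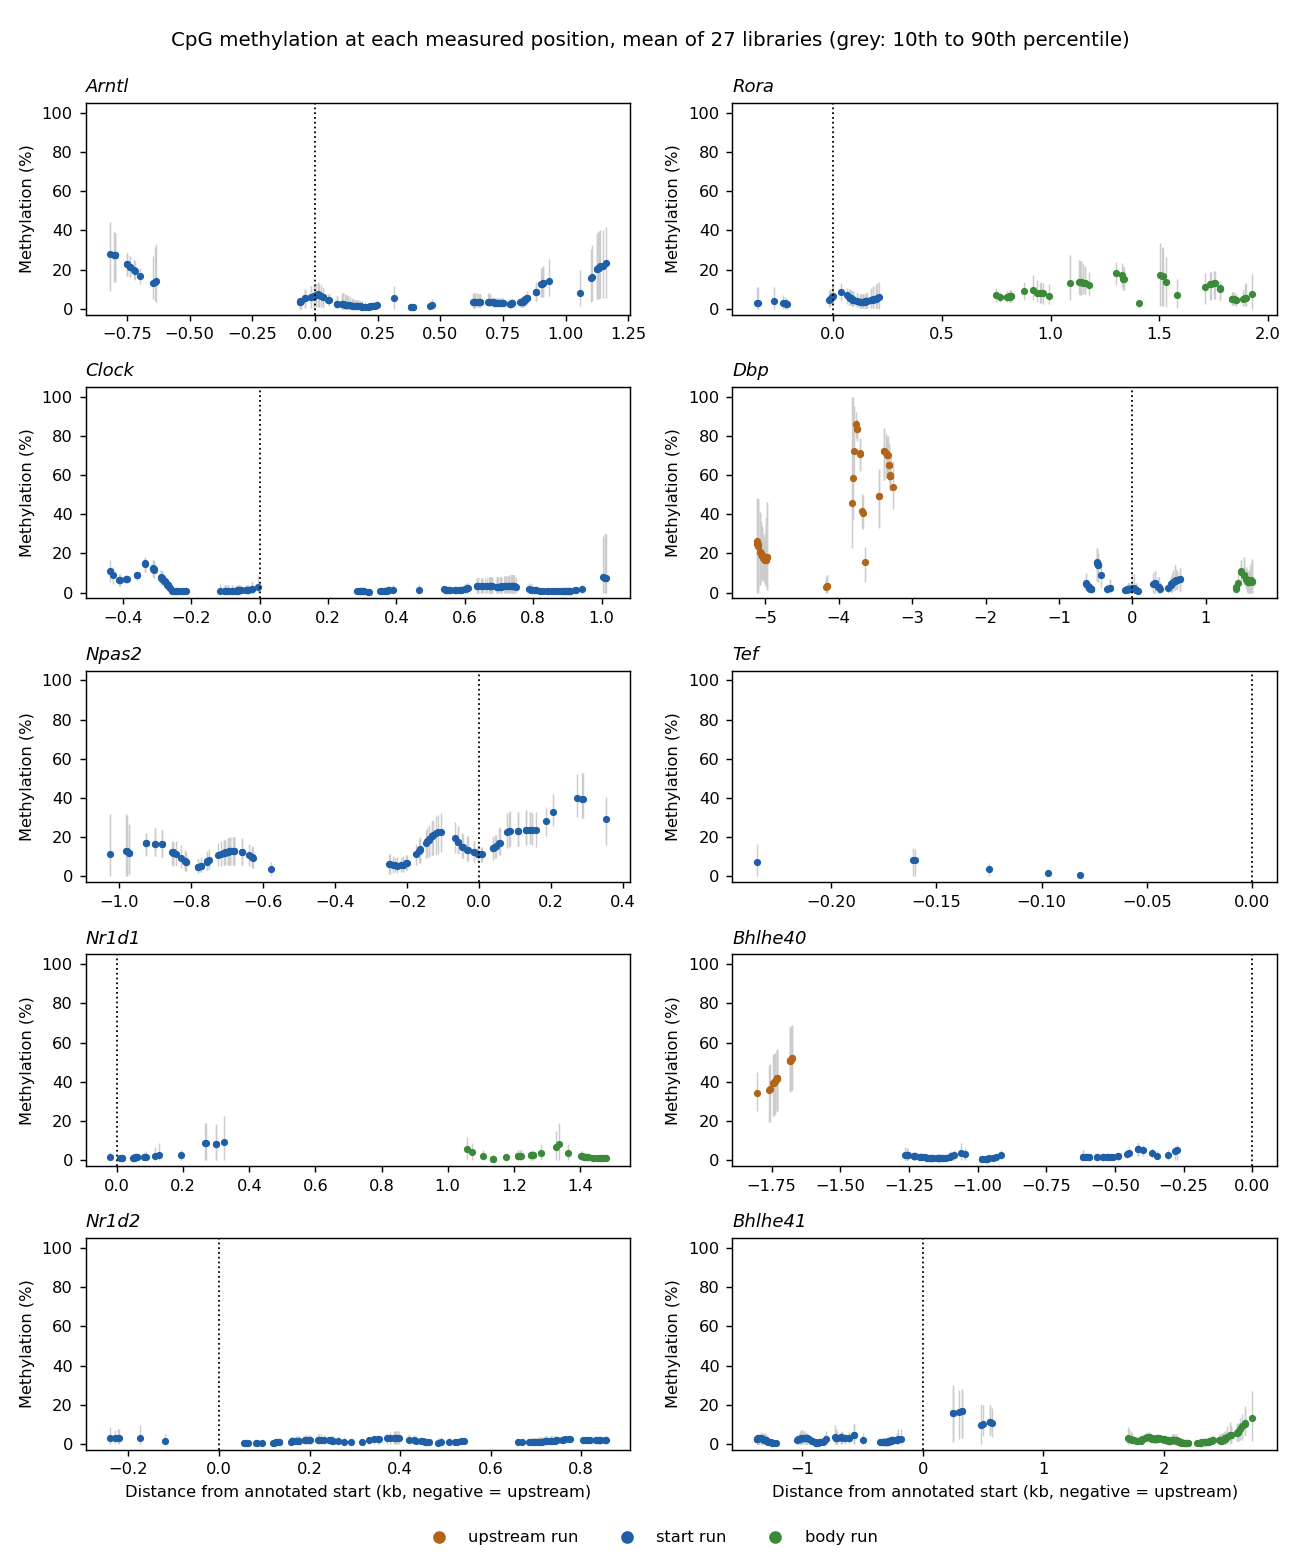
Methylation of each measured position (vertical axis, percent, mean of 27 libraries as a dot, 10th to 90th percentile of libraries as a grey bar) against its distance from an annotated start (horizontal axis, kb), for each of the 10 genes. Distance 0 is the annotated start nearest to a measured position. Among the start runs, run 1 of Arntl, runs 1 and 2 of Npas2 and run 2 of Bhlhe41 have mean levels above 10%. Run 3 of Dbp and run 1 of Bhlhe40, both upstream, reach the highest levels among these genes.

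Most of the measured runs at these starts had low levels. Of the 17 start runs, 13 (76.5%) had a mean level under 10%. The share was 66.7% of the 12037 start runs of all genes with a strand in the RefSeq promoter table. Bhlhe40, with 2 of the 17 runs, has no strand there. Of the 25 runs, 18 (72.0%) had a mean level under 10%, against 57.4% of all runs. The remaining 7 runs had levels between 10% and 90%, and none was higher. Those 7 were 1 run of Arntl, both runs of Npas2, 2 of Dbp, 1 of Bhlhe40 and 1 of Bhlhe41. These levels are a description of the cultures, since methylated and unmethylated alleles or cells are averaged in a bulk library.

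**Figure D2:**
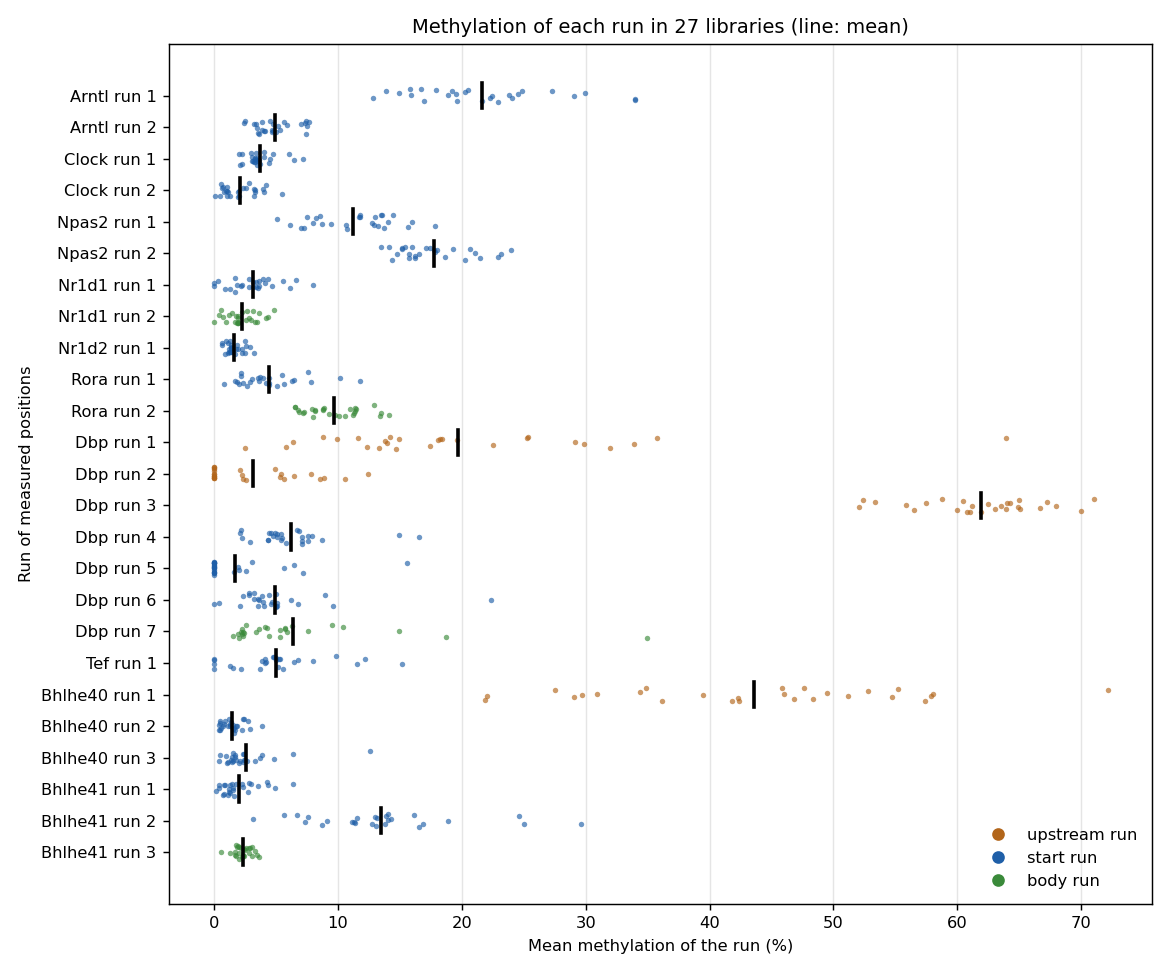
Mean methylation of each of the 25 runs (horizontal axis, percent) in every one of the 27 libraries (dots), with the mean as a vertical line and the class of the run as the colour. The Dbp run 3 cluster at 52.0% to 71.0% and the Bhlhe40 run 1 dots at 21.9% to 72.1% stand to the right of the start runs of the same genes.

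Arntl encodes the obligate partner of CLOCK and NPAS2. Its run 2, chr7:113207405-113208625, covered 119 positions from -60 to 1160 bp around the starts annotated at 113207465 and 113207511. The level was 4.92% ± 1.59 (SD, n = 27), with a lowest, median and highest library of 2.41%, 4.72% and 7.67%. Within the run, the 104 positions up to 882 bp averaged 3.17% ± 1.31 and the 15 positions from 904 bp on averaged 17.0% ± 8.43, so the low stretch ended inside the gene. Run 1, chr7:113206648-113206830, lay 635 to 817 bp upstream and had a level of 21.6% ± 5.64, from 12.8% to 34.0% with a median of 20.5%. It was above run 2 in 27 of 27 libraries, by 16.7 points ± 5.44 (SD of the difference). The low stretch of Arntl was thus bounded by more methylated sequence on both sides. Its outermost annotated start, 113178471, had no run near it. The element AGGTCA that receptors of the ROR and NR1D families can bind was found inside run 2, 31 to 36 bp after the start at 113207511, and holds no CpG.

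Clock encodes the partner of ARNTL in the activating pair. Its run 1, chr5:76304797-76305229, ended 5 bp before the start at 76304792 and had a level of 3.70% ± 1.24 (n = 27), from 1.99% to 7.16% with a median of 3.39%. Run 2, chr5:76303780-76304506, began 42 bp after the start at 76304548 and had a level of 2.08% ± 1.39, from 0.0846% to 5.45% with a median of 1.90%. Run 1 was the higher of the pair in 21 of 27 libraries, by 1.63 points ± 1.79. Its higher end was the far one: the 10 positions from 301 to 400 bp upstream averaged 10.9%, against 1.17% for the 25 positions in the 100 bp next to the start. The lncRNA Gm7467 overlaps run 1.

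Npas2 encodes a factor that can stand in for CLOCK. Of the runs nearest a start in each of the 10 genes, that of Npas2 (run 2) had the highest level, and the other 9 had levels from 1.63% to 5.03%. Run 1, chr1:39193247-39193693, ended 9 bp before the outermost start and had a level of 11.2% ± 3.29 (n = 27), from 5.12% to 17.9% with a median of 11.8%. Run 2, chr1:39194022-39194624, surrounded the start at 39194272 and had a level of 17.7% ± 2.95, from 13.5% to 24.0% with a median of 17.1%. Run 2 was higher in 26 of 27 libraries, by 6.49 points ± 4.53. In steps of 100 bp from upstream to downstream, run 2 averaged 6.07%, 18.1%, 14.5%, 16.8%, 24.1%, 38.0% and 29.4%, the last from 1 position, so the level did not climb steadily. The 10 positions 201 to 250 bp before the start averaged 6.07% ± 3.44 and the 15 positions 108 to 352 bp after it 28.1% ± 5.29. The lowest library stood at 20.5% over those 15 positions and the highest at 42.2%, and the highest over the 10 positions before the start was 16.0%, so the ranges did not overlap.

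Nr1d1 and Nr1d2 encode the REV-ERB receptors, heme-binding repressors of Arntl. Run 1 of Nr1d1, chr11:98775055-98775398, crossed the start and had a level of 3.15% ± 1.96 (n = 27), from 0 to 7.96% with a median of 3.15%. Run 2, chr11:98773899-98774320, lay 1057 to 1478 bp inside the gene at 2.24% ± 1.24, from 0 to 4.81% with a median of 1.93%. The run of Nr1d2, chr14:18238252-18239346, covered 116 positions from -240 to 854 bp and had a level of 1.63% ± 0.683, from 0.645% to 3.19% with a median of 1.37%. Each single position of that run averaged between 0.524% and 3.17%. In Nr1d1 no position averaged above 9.28%, so both REV-ERB genes were low throughout what was measured.

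Rora encodes an activating receptor that competes with the REV-ERBs for the same elements. Run 1, chr9:68653435-68653998, lay around the start at 68653786 with a level of 4.46% ± 2.60 (n = 27), from 0.790% to 11.8% with a median of 3.97%. Run 2, chr9:68654534-68655714, lay 748 to 1928 bp inside the gene with a level of 9.67% ± 2.29, from 6.50% to 14.1% with a median of 9.31%. It was higher than run 1 in 25 of 27 libraries, by 5.22 points ± 3.71. The lncRNA Gm31325 overlaps run 1 in the annotation.

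Dbp, whose RNA is a widely used marker of clock output, had the most runs and the widest span of levels. Run 3, chr7:45701281-45701837, lay 3263 to 3819 bp before the start, inside the neighbouring gene Car11, and had a level of 61.9% ± 4.99 (n = 27), from 52.0% to 71.0% with a median of 62.5%. Its positions were uneven: the 6 positions 3714 to 3789 bp upstream averaged 78.0% ± 4.62 and the 3 positions from 3636 to 3677 bp averaged 32.6% ± 6.86. Run 2, chr7:45700930-45700940, lay 341 bp further upstream, held 3 positions and had a level of 3.15% ± 3.86, with 13 of 27 libraries at 0. Run 3 was above it in 27 of 27 libraries, by 58.7 points ± 6.86. A steep change of level therefore lay inside Car11.

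Run 1 of Dbp, chr7:45699987-45700120, crossed the 5 kb limit of the search, with 6 of its 22 positions inside. Its level was 19.7% ± 12.5, from 2.53% to 64.0% with a median of 17.4%. The highest library, 48 h replicate 3 at 64.0%, stood well above the next at 35.8%, and without it the mean was 18.0% ± 8.94. The 6 positions inside the limit averaged 17.3% ± 18.5.

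Around the start itself Dbp was low. Run 4, chr7:45704471-45704798, lay 302 to 629 bp upstream and overlapped Car11. Its level was 6.19% ± 3.28 (n = 27), with a lowest, median and highest library of 2.10%, 5.39% and 16.6%. Run 5, chr7:45705004-45705175, crossed the start with a level of 1.71% ± 3.48 and a median of 0, since 18 of 27 libraries were at 0. Run 6, chr7:45705383-45705755, had a level of 4.90% ± 4.07, from 0 to 22.4% with a median of 4.04%. Run 7, chr7:45706508-45706734, lay 1261 to 1487 bp inside the gene at 6.37% ± 7.01, from 1.56% to 34.9% with a median of 4.31%. Single libraries weighed on the last 3 runs. The highest values were 15.6% in run 5 and 34.9% in run 7, both in 42 h replicate 1, and 22.4% in run 6, in 30 h replicate 2. Without that library the means were 1.17% ± 2.16 in run 5, 4.23% ± 2.13 in run 6 and 5.27% ± 4.14 in run 7.

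Tef, the other output factor here, had a single run of 6 positions, chr15:81802438-81802591, from 82 to 235 bp before its outermost start. Its level was 5.03% ± 3.80 (n = 27), with a lowest, median and highest library of 0, 4.86% and 15.2%, and 4 libraries at 0. The lncRNA Gm17597 overlaps the run. The start at 81811414 had no run.

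Bhlhe40, also known as Dec1, is induced by many stimuli as well as by the clock. Its runs lay upstream of the start, and the lncRNA 0610040F04Rik overlaps each of them. Run 1, chr6:108658826-108658953, lay 1676 to 1803 bp upstream with a level of 43.6% ± 12.3 (n = 27), from 21.9% to 72.1% with a median of 45.9%. Run 2, chr6:108659366-108659714, 413 bp closer to the gene, had a level of 1.47% ± 0.879, from 0.367% to 3.91% with a median of 1.34%. Run 1 was higher in 27 of 27 libraries, by 42.1 points ± 12.3 (SD of the difference). Run 3, chr6:108660011-108660355, ended 274 bp before the start at 2.59% ± 2.39, from 0.375% to 12.6% with a median of 2.03%, and its highest library was 12 h replicate 3. The step from methylated to unmethylated sequence upstream of Bhlhe40 was thus present in every library.

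Bhlhe41, or Dec2, is the paralogue of Bhlhe40. Run 1, chr6:145865601-145866794, lay 181 to 1374 bp upstream with a level of 2.02% ± 1.54 (n = 27), from 0.118% to 6.36% with a median of 1.53%. Run 2, chr6:145864844-145865168, lay 252 to 576 bp inside the gene, held 10 positions and had a level of 13.5% ± 5.96, from 3.15% to 29.6% with a median of 13.0%. Run 3, chr6:145862687-145863717, covered 164 positions 1703 to 2733 bp inside the gene at 2.33% ± 0.681, from 0.563% to 3.63% with a median of 2.34%. Run 2 was above run 1 in 27 of 27 libraries, by 11.4 points ± 6.22, and above run 3 in 27 of 27, by 11.1 points ± 6.03. An island of higher methylation thus lay between unmethylated stretches in the first part of Bhlhe41. At the far end of run 3 the level rose again, to 7.86% ± 4.18 in the 11 positions from 2605 bp on, against 1.93% ± 0.723 in the 153 positions before them.

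The time course allowed a test of a 24 h rhythm in each run. A cosine and sine of 24 h were fitted with limma to all 18447 runs, and p-values were adjusted over all of them by the Benjamini-Hochberg method. None of the 25 runs passed an adjusted p of 0.05 and none had an unadjusted p under 0.05, against 0% and 4.34% of all runs. The smallest adjusted p among the 25 was 0.980, and the smallest of the whole table was 0.955. A p above the threshold does not show that methylation was constant, so each amplitude is given with the upper 95% limit that the data allow.

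The fitted amplitudes, from the mean to the peak, ran from 0.0871 to 5.88 percentage points with a median of 0.791, and the median over all runs was 0.870. The upper limits ran from 0.766 to 14.7 points, and 19 of the 25 lay under 5 points (all runs: 70.7%). Among the activators, the limits were 6.04 points for run 1 of Arntl and 1.43 for its run 2, 1.30 and 1.53 for runs 1 and 2 of Clock, and 2.96 and 3.01 for runs 1 and 2 of Npas2. For the REV-ERB genes they were 2.06 points for run 1 of Nr1d1 and 0.889 for Nr1d2. For the start runs of Rora and Tef they were 2.70 and 4.62 points, for runs 1 and 2 of Bhlhe41 1.32 and 6.39 points, and for the runs nearest the starts of Dbp (run 5) and Bhlhe40 (run 3) they were 3.77 and 2.43 points. These limits rest on the 24 h cosine that was fitted. Leaving out 1 library moved the fitted amplitude by over 1.5 times in 18 of the 25 runs.

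The widest limits were those of Bhlhe40 run 1 (14.7 points), Dbp run 1 (11.7) and Dbp run 7 (8.72). Bhlhe40 run 1 had a fitted amplitude of 5.88 points (SE 3.38, unadjusted p = 0.239, adjusted p = 0.980 by limma), which fell to 3.73 without 18 h replicate 2. At 30 h its libraries stood at 41.8%, 21.9% and 22.1%, a mean of 28.6% ± 11.4, and the other 8 time points had means between 42.4% and 49.0%. The 30 h values overlapped with those of the other time points. Dbp run 7 had an amplitude of 3.78 points (SE 1.90, adjusted p = 0.980 by limma), which fell to 1.43 without 42 h replicate 1. The smallest unadjusted rhythm p among the 25 runs was 0.110, in Dbp run 3, with an amplitude of 2.82 points (SE 1.29) on a level of 61.9%. Dbp run 4 followed at 0.121, with 1.75 points (1.10 without 48 h replicate 3), then Dbp run 7 at 0.158, Tef at 0.172 and Rora run 2 at 0.184. All 5 had an adjusted p of 0.980.

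**Figure D3:**
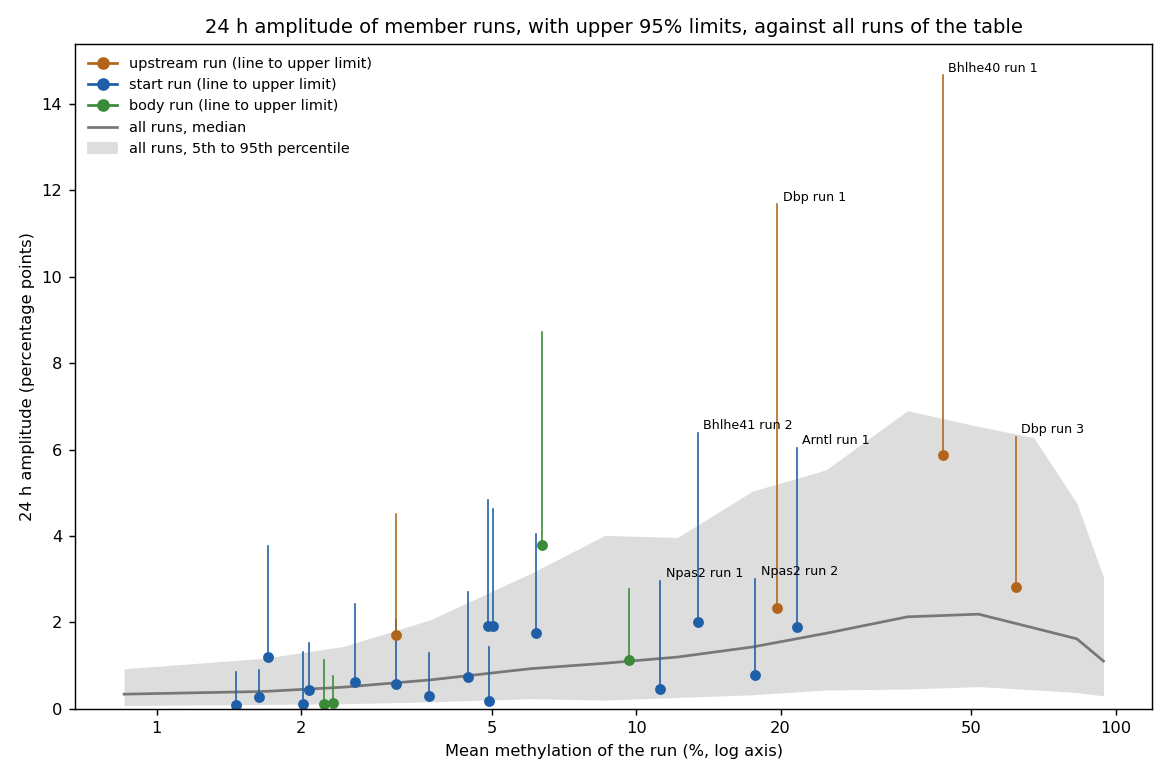
Fitted 24 h amplitude (vertical axis, percentage points) of each of the 25 runs (dots, coloured by class, with a line up to the upper 95% limit) against its mean methylation (horizontal axis, percent, log scale). The grey line and band are the median and the 5th to 95th percentile of all 18447 runs in bins of level, and the dot highest on the axis is Bhlhe40 run 1 at 5.88 points.

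Single positions gave no calls either. Of 1213 positions in the 25 runs, none passed an adjusted p of 0.05 for a rhythm and 22 had an unadjusted p under 0.05 (1.81%), against 0% and 3.91% of the 871894 positions of the table. The smallest adjusted p among them was 0.953. Of those 22, 10 were neighbours in Npas2 run 1, chr1:39193370-39193444, 9 lay together in Bhlhe41 run 3, chr6:145862745-145862814, 2 lay apart from each other in Dbp run 3 and 1 lay in Rora run 2. In the Npas2 stretch the amplitudes were between 3.32 and 4.67 points, with fitted peaks at hours 17.0 to 17.4 of the 24 h cycle counted from the shock. In the Bhlhe41 stretch they were between 2.27 and 6.16 points, with peaks at hours 4.65 to 5.21. The 2 positions of Dbp run 3 had amplitudes of 19.3 points (SE 7.01, position 45701281, peak at hour 9.99) and 5.48 points (SE 1.92, position 45701464, peak at hour 2.87). Each of the Npas2 and Bhlhe41 stretches counts as little more than 1 measurement, since neighbouring values move together.

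A linear trend over the 48 h from the first to the last time point passed the adjusted threshold in none of the 25 runs. Without adjustment, 3 runs (12.0%) had p under 0.05, against 0% adjusted and 4.99% unadjusted over all runs. They were Clock run 2, Npas2 run 1 and Bhlhe41 run 2, and the adjusted p was 0.976 by limma in each. The next smallest were Nr1d2 (slope 0.817 points per 48 h, unadjusted p = 0.0945 by limma) and Bhlhe40 run 3 (slope -2.33, unadjusted p = 0.0996 by limma), whose slope was -0.540 without 12 h replicate 3. Of the 25 slopes, 12 were upward.

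In Clock run 2, downstream of the start at 76304548, the libraries at 12 h stood at 1.14%, 5.45% and 2.56%, at 18 h at 1.05%, 3.23% and 3.94%, and at 24 h at 1.90%, 4.01% and 3.27%. At 30 h they stood at 4.23%, 0.461% and 3.34%, at 36 h at 0.964%, 3.19% and 0.700%, and at 42 h at 2.02%, 2.01% and 2.85%. At 48 h the values were 0.820%, 2.33% and 1.02%, at 54 h 0.0846%, 0.621% and 1.32%, and at 60 h 1.90%, 0.581% and 1.07%. The 9 libraries from 48 h on lay between 0.0846% and 2.33% and the 18 earlier ones between 0.461% and 5.45%, so the ranges overlapped. The slope was -2.32 points per 48 h (SE 0.743, unadjusted p = 0.00431). It ranged from -2.74 to -1.87 when each library was left out in turn, and the largest p was then 0.0178.

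In Npas2 run 1, which ends at the outermost start, the libraries at 12 h stood at 9.43%, 10.7% and 7.48%, at 18 h at 11.8%, 7.03% and 8.70%, and at 24 h at 8.59%, 6.16% and 10.6%. At 30 h they stood at 7.23%, 12.9% and 13.0%, at 36 h at 13.5%, 13.6% and 14.4%, and at 42 h at 8.22%, 15.7% and 14.0%. At 48 h the values were 16.0%, 13.2% and 11.7%, at 54 h 5.12%, 12.7% and 13.7%, and at 60 h 7.96%, 11.8% and 17.9%. The 9 libraries up to 24 h lay between 6.16% and 11.8%, and the later 18 spread from 5.12% to 17.9% and overlapped with them. The slope was 3.92 points per 48 h (SE 1.81, unadjusted p = 0.0395), and p was under 0.05 in 17 of the 27 fits that left out 1 library, reaching 0.118 without 60 h replicate 3.

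In Bhlhe41 run 2, the more methylated run inside the gene, the libraries at 12 h stood at 29.6%, 24.6% and 11.3%, at 18 h at 13.8%, 13.0% and 11.3%, and at 24 h at 16.9%, 7.37% and 11.2%. At 30 h they stood at 11.6%, 25.1% and 16.5%, at 36 h at 14.1%, 12.7% and 14.1%, and at 42 h at 8.69%, 13.9% and 14.3%. At 48 h the values were 13.2%, 6.67% and 13.0%, at 54 h 3.15%, 18.9% and 9.12%, and at 60 h 5.63%, 7.59% and 16.1%. The 3 values above 20% were from 12 h and 30 h, and the time points overlapped. The slope was -8.32 points per 48 h (SE 3.14, unadjusted p = 0.0134 by limma, n = 27), and without 12 h replicate 1 it was -5.88 (unadjusted p = 0.0577 by limma, n = 26).

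**Figure D4:**
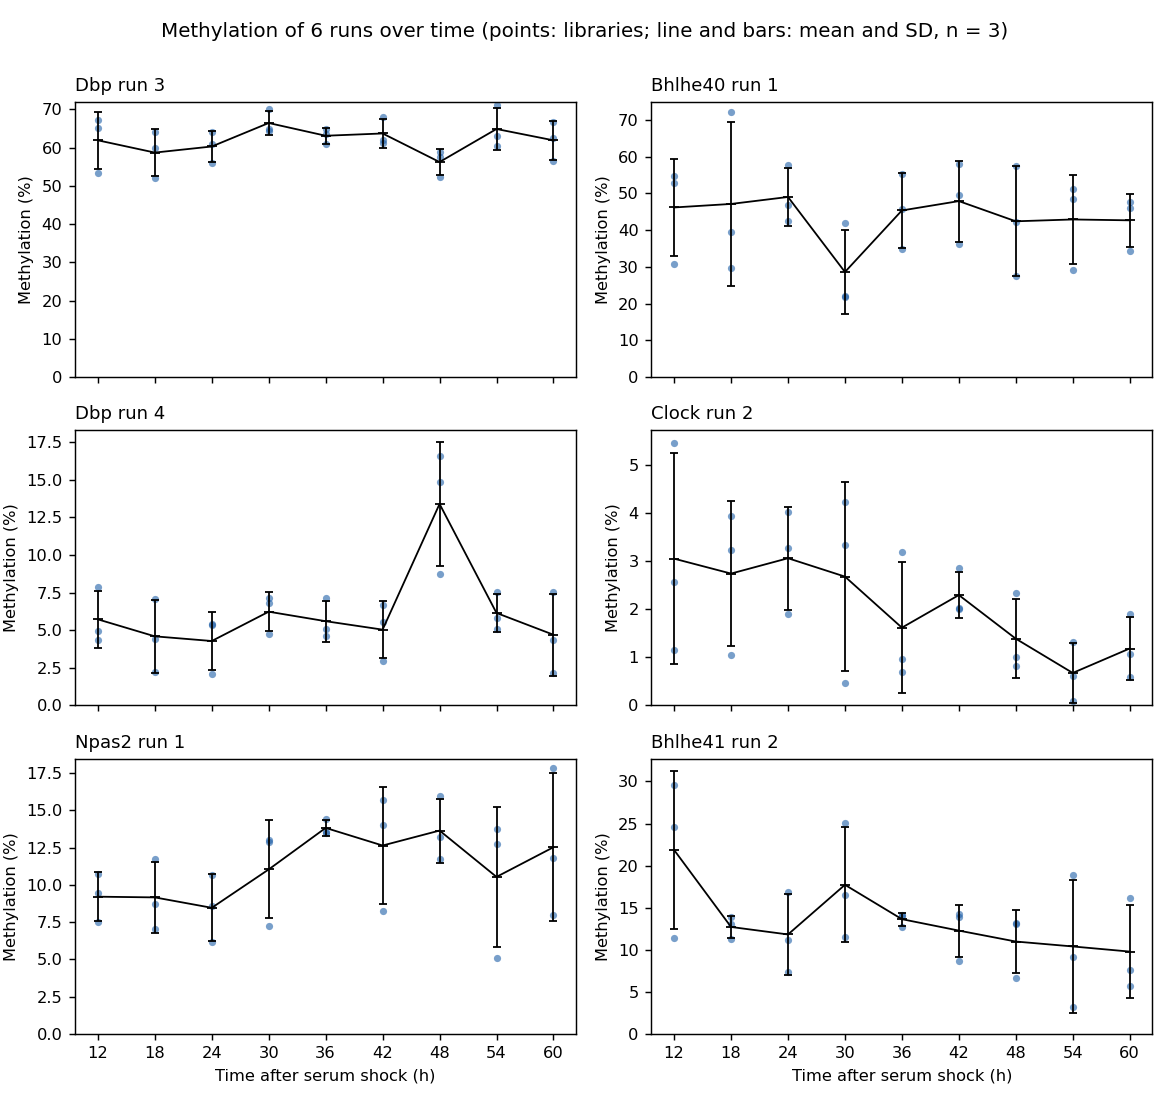
Methylation (vertical axes, percent, each panel on its own scale from 0) against time after the serum shock (horizontal axis, h) in 6 runs: points are libraries, and the line and bars are the mean and SD of the 3 libraries at each time point. Dbp run 4 stands at 13.4% at 48 h and between 4.29% and 6.23% at the other time points, while the spread within time points of the other 5 runs covers most of the movement of their means.

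Dbp run 4 was the run whose time points differed with the smallest p. With the time point as a factor, 1 of the 25 runs had an unadjusted p under 0.05 (all runs: 4.3%), and none passed the adjusted threshold (all runs: 0.00542%). At 48 h its libraries stood at 14.9%, 8.74% and 16.6%, a mean of 13.4% ± 4.13 (n = 3). The other 24 libraries lay between 2.10% and 7.88%, with a mean of 5.29% ± 1.74, so the 3 libraries of 48 h were all above the other 24. Of all runs in the table, 0.0759% had their 3 libraries of 48 h above the other 24, and 0.439% had the libraries of some time point all above or all below the rest. The p for Dbp run 4 was 0.00269 without adjustment and 0.990 after it by limma, and without 48 h replicate 3 the unadjusted p was 0.0487. This pattern was singled out after the values were seen. The next smallest unadjusted p were 0.153 for Clock run 1, 0.168 for Npas2 run 2, 0.181 for Bhlhe41 run 1 and 0.190 for Bhlhe41 run 2, each with an adjusted p of 0.990 by limma.

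The 48 h values of Dbp run 4 came from a small stretch. Its 6 positions at chr7:45704612-45704679, 421 to 488 bp before the start, stood at 43.5%, 21.7% and 42.7% at 48 h, and between 3.40% and 18.5% in the other 24 libraries, with a median of 11.4%. At 24 h, a full cycle earlier, the same positions stood at 3.97%, 12.7% and 13.3%. The 10 positions further upstream in the run averaged 3.08% ± 1.99 at 48 h and 2.75% ± 2.23 over all libraries. In the neighbouring runs, run 3 was at 52.4%, 57.5% and 58.7% at 48 h, its lowest mean of the course (56.2% ± 3.34), and run 5 was at 0 in the 3 libraries of 48 h. Inside run 3, however, the 3 positions 3636 to 3677 bp upstream averaged 40.4% ± 6.77 at 48 h, with a median of 33.6% in the other 24 libraries and a highest of 41.9%, so they overlapped. No read counts come with these levels, so the number of reads behind the 6 positions is unknown. Over the whole table, 48 h replicates 1, 2 and 3 lacked a value at 11238, 1640 and 8895 positions. The library that lacked the most, 12 h replicate 3 (21925), stood at 17.2% in the 6 positions. Whether completeness bears on the 48 h values was not tested. RNA of Dbp was not analysed here.

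No correlation between neighbouring runs was detected. Over the 27 libraries, the 15 pairs of neighbouring runs had Pearson correlations from -0.193 to 0.264 and Spearman correlations from -0.297 to 0.312, and the smallest adjusted permutation p over the pairs was 0.882. For the pair with the highest Pearson r, runs 1 and 2 of Arntl, r was 0.264 (permutation p = 0.185), Spearman's rho was 0.226 (permutation p = 0.257), and r was 0.179 without the 2 libraries farthest from the median. Without the 2 farthest libraries, r over the 15 pairs ranged from -0.416 (Rora runs 1 and 2) to 0.382 (Dbp runs 4 and 5). The gaps between the paired runs were 206 bp to 2634 bp.

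Other genes of the clock pathway were looked up in the same way. Of 36 genes chosen by function, also with earlier results known, 24 had runs, 9 had no strand in the annotation used here and 3 had no run. In the start run nearest an annotated start, the 21 with such a run had levels from 0.749% to 9.68% with a median of 2.62%. The highest were Ppara at 9.68% ± 0.938, Hlf at 6.73% ± 2.76, Fbxl21 at 6.45% ± 4.19, Ciart at 4.84% ± 1.46 and Usp2 at 4.84% ± 2.72, and the lowest were Timeless at 0.749% ± 0.874, Prkaa1 at 1.40% ± 0.924, Cry2 at 1.76% ± 1.36, Gsk3b at 1.83% ± 1.23 and Nampt at 1.88% ± 1.03. The same measure was under 10% in 9 of the 10 members, with a median of 3.43%, and was 17.7% in Npas2. Over all their start runs, 29 of 30 of these other genes' runs were under 10%, and the other was a run of Fbxw11, 586 bp from a start, at 42.9% ± 8.97. Of the 42 runs of these other genes, none passed the adjusted threshold for a rhythm, a trend or a difference between time points, and 0, 2 and 1 did so without adjustment. Over all runs the unadjusted shares were 4.34%, 4.99% and 4.3%, and the adjusted ones 0%, 0% and 0.00542%. The smallest rhythm p were 0.0629 for Timeless, 0.0679 for Ddb1, 0.113 for Crebbp, 0.180 for Fbxw11 and 0.199 for Ncor1. Per1, whose protein represses the ARNTL pair, had a level of 3.67% ± 3.64 and an amplitude limit of 3.90 points.

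Over the whole table, the libraries had mean levels between 11.4% (12 h replicate 3) and 12.7% (48 h replicate 3). The latter was also the highest library of Dbp runs 1 and 4 and of Bhlhe41 run 3. Every pair of libraries correlated at 0.938 to 0.980 across runs, which are not independent replicates. Methylation gives no direct check of cell identity. Of 8 muscle genes looked up, 5 had a start run (Myog, Myf5, Des, Acta1 and Mylpf). In the run nearest the start, their levels ranged from 3.24% to 83.9%. Of 6 genes of other cells, 2 had a start run. For the fibroblast gene Pdgfra the level was 63.5% ± 15.3 (SD), with libraries from 35.85% to 100%. The adipocyte gene Pparg stood at 2.36% in the run nearest its start and at 31.2% in its other start run.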

How the data were processed

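RRBS libraries of 27 C2C12 samples were analysed, grouped by the time in their labels. The submitters' processing notes name mm10 as the build, and Bismark (0.14.4), Bowtie2, cutadapt (1.9.1) and Trim Galore (0.4.0) as tools, without settings. The deposited table gives methylation per position and library as a fraction between 0 and 1, without read counts, so depth is unknown and nothing was weighted by it. Levels were multiplied to percent. Positions lacking a value in any of the 27 libraries were dropped, which left 871894 of 937644. The libraries differed: 1640 positions lacked a value in 48 h replicate 2 and 21925 in 12 h replicate 3. Of the kept positions, 5.15% were at 0 in 24 h replicate 3 and 25.4% in 12 h replicate 3, the extremes. That last library was the highest in Nr1d1 run 2, Tef and Bhlhe40 run 3, and stood at 0 in Dbp runs 2 and 6. Positions were read as counted from 1, since 99.98% of 248863 of them then fall on a CpG of RefSeq promoter sequence.

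Genes, starts and strands came from RefSeq tables of GRCm38.p6; the strand of Bhlhe40, plus, came from general knowledge. Runs were classed by all annotated starts rather than by the outermost start alone, which changed the class of 3 runs (Arntl runs 1 and 2 and Clock run 2, otherwise body). Rhythm, trend and time point were tested with limma 3.58.1 (R 4.3.3) over all runs, tested on simulated data, with the Benjamini-Hochberg method, without a replicate block. The rest was done in Python 3.11.15. Correlations used 100000 permutations. The members and gene lists were chosen with earlier results of these data known. All 10 members are named; the lowest, median and highest library, or every library, are given for start runs, runs at 10% to 90% and the 5 smallest p of each test. All tests are two-sided.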

Additional observations from a re-analysis of the deposited data

How the results depend on the processing

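No run of the 10 genes passed an adjusted p of 0.05 under any setting tried: 43 alternatives for the rhythm and 39 each for the trend and the time point gave 0 calls each. These were M-values, gaps of 100 bp or 500 bp, values in at least 24 libraries, CpG strands averaged, the library mean as a covariate, another variance prior, at least 10 positions, periods of 20 h or 28 h, linear time as a term, and leaving out each library, each replicate number or 12 h. Over all runs, the same alternatives gave 0 adjusted calls for the rhythm and the trend and 0 to 3 for the time point. Without adjustment, the 25 runs gave 0 to 2 calls for the rhythm, 1 to 4 for the trend and 0 to 2 for the time point. The unadjusted shares over all runs were 4.34%, 4.99% and 4.3% under the main setting, and were not tallied for the alternatives. Deviations of same-numbered libraries had a mean correlation of 0.00489 (none of 108 pairs over 0.1), and those of differently numbered ones -0.00242 (216 pairs). Both were near 0, but 18 of 27 libraries correlated best with their own of the 3 numbers. Whether this share exceeds what 3 numbers give at random was not tested. A fit with the replicate block also gave 0 calls in each test. With gaps of 500 bp, runs 2 and 3 of Dbp merged at 55.6%, so the difference between run 2 and run 1 turned from negative to 35.9 points by construction, and the merged Bhlhe40 runs stood at 9.32%. Runs 1 and 2 of Bhlhe41 merged likewise, to 3.04%, with a slope of -0.0501 points. Without read counts, no limit from depth can be stated.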
